A study of Mus musculus with 12 samples.

Results

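The comparison is between bone marrow stem and progenitor cells of mice with Tet2-/- Nras G12D that had no leukemia and of mice with Nras G12D alone. It asks what loss of Tet2 adds to an activated Nras before leukemia. Members were taken from the titles of the samples: 3 of the 12 libraries of the series are nonleukemic double mutants and 3 are Nras G12D. CpGs were taken on the autosomes without chromosome 3, which carries both Tet2 and Nras, where every one of the 6 libraries had at least 10 reads. These were 1057191 CpGs, both strands of a CpG counted together, of 1528573 listed in any of the 6 libraries off chromosome 3 and of 2102125 autosomal CpGs in the whole series.

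Both groups were C57BL/6 mice examined at 6 months of age, and both carried the activating Nras G12D allele. The double mutants also lacked Tet2 on both alleles. The mutations were conditional and limited to blood-forming tissue, per the series' design text; the Cre driver is not given in the sources used here. Cells were sorted as LSK, which lack markers of mature lineages and carry Sca1 and cKit. Methylation was read by reduced representation bisulfite sequencing (RRBS), which cuts DNA with MspI and so covers CpG-rich fragments best. Wild-type libraries were not analysed here, so each difference is between mutants. Nothing in the labels says whether replicates are separate animals, so a p-value measures the spread between these libraries. In sorted bulk cells, a change in the mix of cell types and a change of methylation within a cell type cannot be told apart. The labelled cell type was not checked by expression, which was not measured here, and the Tet2 and Nras alleles were not checked.

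Tet2 oxidises 5-methylcytosine to 5-hydroxymethylcytosine and further products, a step towards removal of the methyl group. Its loss is frequent in clonal blood formation and in myeloid neoplasms, and is known for gains of methylation, often at enhancers. Nras is a small GTPase that signals through the MAPK cascade, and the G12D change keeps it in its active state. MAPK signalling is held back by its own target genes, such as the Sprouty (Spry), Spred and dual specificity phosphatase (Dusp) genes.

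The 6 libraries held 107032660 to 129362137 reads over listed cytosines, and a median of 79 to 94 reads at the tested CpGs. Mitochondrial CpGs, which are largely free of methylation, read as 0.222% to 1.0% methylated, a measure of incomplete conversion. The highest was Nras G12D replicate 3, which also stood apart from its group: over tiles, both its pairs had a mean chi-square of 10.9, and the other 4 replicate pairs 5.62 to 5.99. Nonleukemic replicate 1 had 349 positions on chromosome Y, and the other 5 libraries had 2 to 13. On the autosomes, 1269 CpGs had at least 20 reads in every double mutant and were listed in no Nras G12D library, and 598 had the reverse. Such positions, called group-only here, lay mainly on chromosomes 8, 3, 12 and 4.

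Across the measured methylome the double mutants were slightly more methylated. The mean over all tested CpGs was 35.7%, 35.8% and 36.1% in Nras G12D replicates 1 to 3, and 36.4%, 36.3% and 36.3% in the double mutants. The groups did not overlap, but the difference was 0.442 points, against a standard deviation of 0.214 among the Nras G12D libraries. A two-sided exact permutation test gave p = 0.1, the smallest value that 3 libraries against 3 can give.

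The difference was concentrated at partly methylated CpGs. The 76118 CpGs with a mean of 20 to 80% over the 6 libraries, 7.20% of all, were at 52.5%, 52.7% and 51.9% in Nras G12D. In the double mutants they were at 56.0%, 55.6% and 55.1%. Each double mutant was higher than each Nras G12D library, and the mean difference was 3.16 points, from 52.4% ± 0.420 (SD, n = 3) to 55.6% ± 0.451 (SD, n = 3). The exact permutation p was again 0.1, and 0.3 after adjustment over the 3 level classes. CpGs under 20% differed by 0.143 points (exact permutation p = 0.3, adjusted 0.4) and CpGs over 80% by 0.386 points (p = 0.4, adjusted 0.4), with overlap between the groups in both classes. The value over 80% was 0.131, 0.231 and 0.681 points without Nras G12D replicates 1, 2 and 3, respectively. With classes set on the Nras G12D libraries alone, the difference over 80% was -0.262 points.

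CpGs were then sorted by libraries outside the comparison. Bins were set on the mean of the Tet2 knockout and leukemic double mutant libraries, among CpGs with at least 10 reads in these too. The difference was 0.0742 points in the 528322 CpGs under 10%, rose to 3.14 points in the 10516 CpGs of 50 to 60% and came down to 0.366 points over 90%. The groups did not overlap in the 8 bins from 10 to 90% and overlapped in the lowest and the highest. At 20 to 80% on this scale the difference was 2.39 points.

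**Figure D1:**
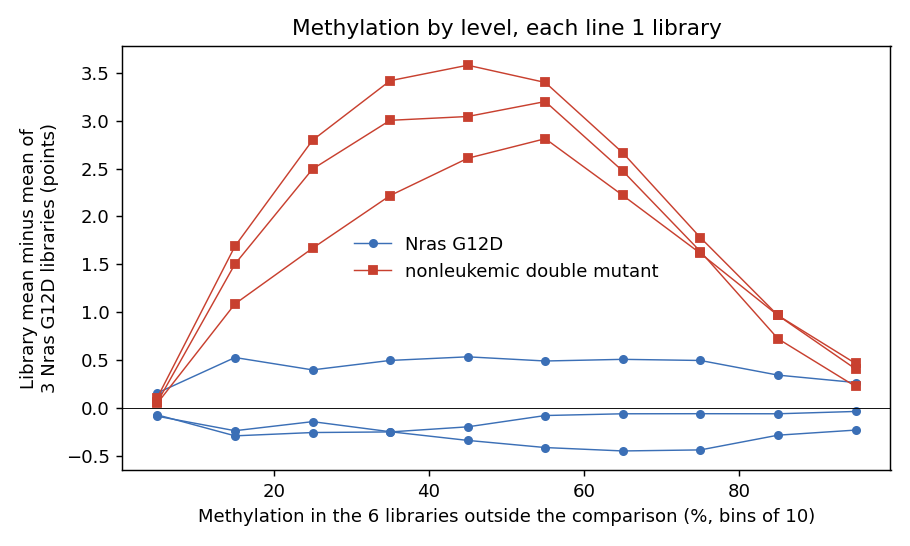
Mean methylation of each library (1 line each) in bins of CpGs, minus the mean of the 3 Nras G12D libraries in the same bin, in percentage points. Bins of 10% on the horizontal axis were set on the Tet2 knockout and leukemic libraries. The 3 double mutants run above all Nras G12D libraries from 10 to 90%, with a mean difference of 3.14 points at 50 to 60%.

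Every chromosome tested showed this direction. On each of the 18 autosomes the partly methylated CpGs were higher in all 3 double mutants than in all 3 Nras G12D libraries, by 2.25 points on chromosome 12 to 4.51 points on chromosome 16. Chromosome 16 went from 53.1% to 57.6%, and chromosome 12 from 52.4% to 54.6%.

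Regions showed the same balance. The CpGs were summed in 95347 tiles of 1000 bp with at least 3 tested CpGs. In 7839 tiles, 8.22% of those tested, all double mutants were above all Nras G12D libraries, and in 3481 tiles, 3.65%, all were below. Among the 12531 partly methylated tiles 1759 were above and 425 below (3.39%), and the median tile difference was 2.46 points. Tiles under 20% had a median difference of 0.0521 points and tiles over 80% of 0.376 points. Single CpGs were less one-sided: the double mutants were all above at 26838 CpGs (2.54%) and all below at 20849 (1.97%).

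Single regions rarely passed the adjusted test. A tile was called at a Benjamini-Hochberg adjusted p under 0.05 and a difference of at least 10 points. Methylated reads out of all reads were fitted with a quasi-binomial model, in which the spread of each tile is drawn towards that of all tiles by the method of limma. It called 0 tiles higher (0%) and 1 lower (0.00105% of tiles), and it called 0 of the 1057191 CpGs (0%), where at least 25 points were needed. Without adjustment, at p under 0.05, 5279 tiles (5.54%) were higher and 1911 (2%) lower, with 28849 CpGs higher (2.73%) and 21669 lower (2.05%). limma called 0 tiles and 0 CpGs. A region that misses the threshold is not shown to be alike in both groups.

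The called tile lies on chromosome 4 from 116977000 to 116977999 (mm9), with 10 CpGs and 680 to 1254 reads per library. Its methylation was 74.3%, 78.6% and 76.2% in Nras G12D and 41.9%, 43.5% and 42.7% in the double mutants. In summed reads the double mutants lay close together and far below, at 42.7% ± 0.773 against 76.4% ± 2.18 (SD, n = 3 each). The difference was -33.7 points, with adjusted p = 0.0358 by the quasi-binomial test. All 10 CpGs were lower in group means, by 23.5 to 45.9 points, but single CpGs spread more. Position 116977025 was at 50%, 68.5% and 100% in Nras G12D and at 73.2%, 39.2% and 35.5% in the double mutants, with overlap. The nearest placed start is that of Tmem53, a transmembrane protein gene, 52.9 kb away. Tet2 knockout libraries averaged 68.4% in the tile, at 56.0%, 83.9% and 65.2%. Leukemic double mutants averaged 75.9%, at 48.6%, 84.4% and 94.8%. Over 17 other settings the adjusted p ran from 2.06e-150 in Fisher's exact test on pooled reads to 1 with all 12 libraries, and the call was kept in 8. It was lost without any 1 of the 6 libraries, with adjusted p from 0.172 to 0.585, at differences of -34.7 to -32.6 points.

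The spread was also drawn from tiles of 5 to 95% methylation only, leaving out those at the ends of the scale. This alternative was added after the data had been seen. Ranges of 1 to 99%, 5 to 95% and 20 to 80% were run side by side, and all their calls were known when the range of 5 to 95% was taken for description. They called 191, 70 and 1 tiles, so the number of tiles depends on this choice, and the regions below are candidates of that fit. The fit called 70 tiles (0.0734%), 51 of them higher (0.0535%) and 19 lower (0.0199%). With all 12 libraries sharing the spread it called 6. Without Nras G12D replicates 1, 2 and 3 it called 24, 34 and 57, and without double mutant replicates 1, 2 and 3 it called 36, 35 and 33. Over these fits the higher tiles numbered 20 to 46 and the lower ones 4 to 11.

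By their level in Nras G12D, 32 of the 51 higher tiles were at 20 to 80% and 19 under 20%, and 7 of the 19 lower tiles were at 20 to 80% and 12 over 80%. Of all 95347 tiles, 13120 were at 20 to 80% there, 26653 under 20% and 55574 over 80%. The higher tiles had a median of 25.9% in Nras G12D and 58.8% in the double mutants, and of 50.0% in Tet2 knockout and 30.3% in leukemic double mutants. The lower tiles had medians of 92.8%, 56.2%, 71.8% and 80.6% in the same order. Of all 95347 tiles, 10993 lay within 1 kb of a placed gene start, and of the called ones 1 higher and 1 lower tile did. Among partly methylated tiles the share called was 0.524% within 1 kb, where there were only 382 such tiles. It was 0.266% at 1 to 10 kb, 0.527% at 10 to 100 kb and 0.419% over 100 kb. Group-only positions were frequent around the lower tiles. At least 5 of them lay within 1 Mb of 15 of the 19 lower tiles and of 11 of the 51 higher ones, against 6.30% of all tiles. With those surroundings left out, 30 tiles were called, 27 of them higher and 3 lower.

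The following 20 tiles were named after their values had been seen. They are the 12 largest rises and the 8 largest falls of this fit, among tiles that hold 5 or more CpGs and whose groups do not overlap. With the spread drawn from all tiles, 19 of them had an adjusted p of 0.179 to 0.506. Genes are named by the nearest promoter that could be placed on mm9, at most 100 kb away, and an unplaced gene may lie closer.

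In 10 of the 12 rises the mean of the 3 Tet2 knockout libraries, which took no part in the choice, was nearer to the double mutants than to Nras G12D, and in 2 of 12 that of the leukemic double mutants was. In the 8 falls these counts were 3 and 4. The same share was not counted over all tiles. Their medians were 88.6% in Nras G12D, 89.8% in the double mutants, 90.3% in Tet2 knockout and 80.4% in leukemic double mutants.

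The largest rise was on chromosome 6 from 116601000 to 116601999, with 10 CpGs and 859 to 1349 reads, 22.8 kb upstream of the zinc finger gene Zfp422. Nras G12D libraries were at 6.58%, 9.86% and 16.3%, and double mutants at 68.0%, 77.4% and 43.7%. Every double mutant was far above every Nras G12D library, though the double mutants spread widely, and all 10 CpGs were higher. The difference was 52.1 points, with adjusted p = 0.00247 by the quasi-binomial test with the 5 to 95% range and 0.309 over all tiles. Tet2 knockout was at 17.0% and the leukemic double mutants at 10.7%, both near Nras G12D. Within 1 Mb there were 13 group-only positions, and their part in the result was not tested. Another tile 12 kb away on the same chromosome, from 116589000 to 116589999, went the other way. It was at 99.2%, 98.6% and 100% in Nras G12D and at 77.8%, 79.7% and 86.8% in the double mutants. The difference was uneven over its 6 CpGs. Position 116589401 differed by -78.6 points, with 100% in all Nras G12D libraries against 0%, 0% and 64.3%. The other 5 differed by 0 to -15.8 points. Every T read was counted as unmethylated, and the sequence at position 116589401 was not checked.

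A tile of chromosome 2 from 169417000 to 169417999 was free of group-only positions within 1 Mb. Its 5 CpGs were at 19.7%, 29.1% and 23.6% in Nras G12D and at 56.8%, 69.2% and 70.1% in the double mutants. The groups were far apart, by 41.3 points, with adjusted p = 0.0027 in the 5 to 95% range and 0.182 over all tiles, both in the quasi-binomial model. Tet2 knockout and leukemic double mutants were at 49.8% and 49.6%, between both groups. No gene start was placed within 100 kb.

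On chromosome 7 from 19595000 to 19595999, 13.4 kb downstream of the start of Foxa3, a forkhead transcription factor, 7 CpGs were at 43.0%, 34.8% and 38.9% in Nras G12D. The double mutants were at 72.4%, 70.0% and 78.1%. In summed reads replicates were tight in both groups, the difference was 34.6 points, and no group-only position lay within 1 Mb. Single CpGs of Nras G12D spread more widely. Position 19595132 was at 50.7%, 43.1% and 4.35%, and position 19595282 at 65.8%, 45.3% and 82.0%. Tet2 knockout was at 70.9%, like the double mutants, and the leukemic double mutants at 52.4%. The quasi-binomial test gave an adjusted p of 0.00961 with the 5 to 95% range and 0.182 over all tiles.

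A tile of chromosome 16 from 22119000 to 22119999 lay within the length of Igf2bp2, which encodes an RNA-binding protein, 43.9 kb from its start. In summed reads it was low in Nras G12D, at 8.02%, 5.77% and 6.60%, and at 28.1%, 52.2% and 34.1% in the double mutants. Its CpGs were not alike: position 22119007 was at 48.1%, 88.5% and 50% in Nras G12D. All 5 CpGs were higher in group means, by 22.2 to 46.0 points. The leukemic double mutants, at 7.34%, were at the level of Nras G12D. On chromosome 11 from 116468000 to 116468999, 74.7 kb from the start of Sphk1, a sphingosine kinase gene, levels went from 56.1%, 63.9% and 64.0% to 89.6%, 94.0% and 92.0%. On chromosome 4 from 137803000 to 137803999, 14.7 kb upstream of the kinesin gene Kif17, they were 22.8%, 27.2% and 5.87% in Nras G12D and 49.0%, 53.4% and 45.5% in the double mutants. Nras G12D replicate 3 was the lowest by far there. In the remaining rises the difference ran from 29.9 to 41.4 points. In all 12 every CpG of the tile was higher in group means, but the tiles were chosen on the sums of these CpGs. The smallest such difference was 1.06 points, in the tile of chromosome 2 from 170174000.

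**Figure D2:**
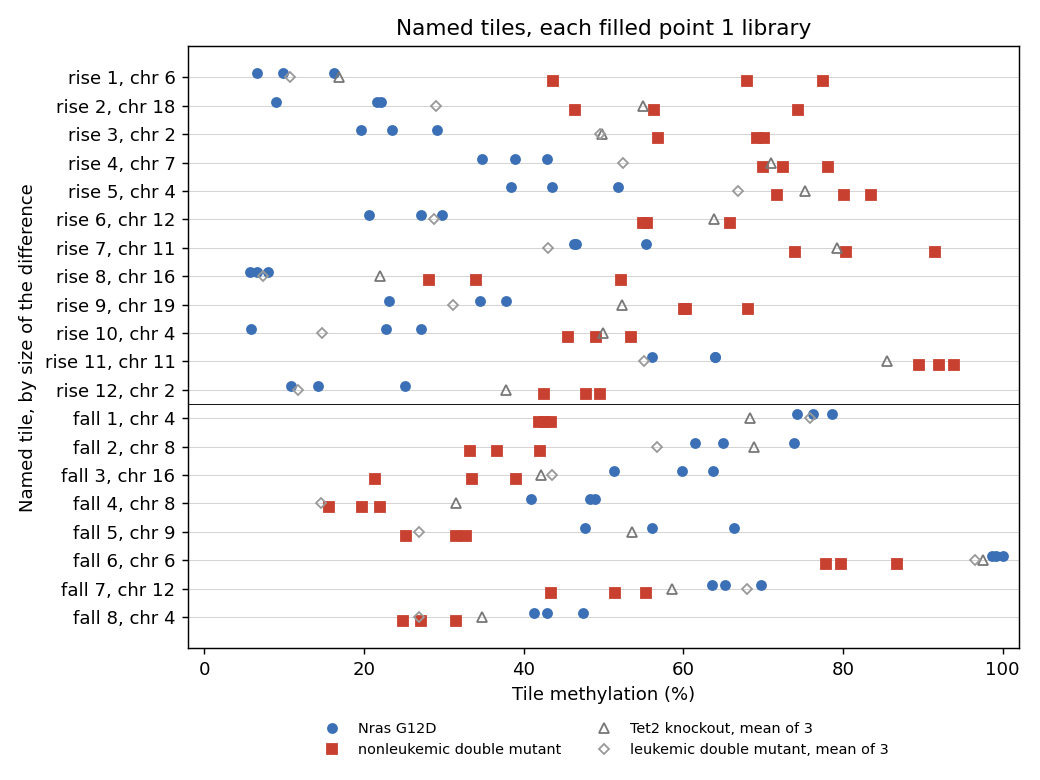
Methylation of the 20 named tiles in percent, 1 row per tile, with rises above the line and falls below it. Filled points are single libraries of Nras G12D (circles) and of the double mutant (squares), open points the means of 3 Tet2 knockout (triangles) and 3 leukemic double mutant (diamonds) libraries. In each row the filled circles and squares do not overlap, which the rule for naming required.

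Among the falls, a tile within Zfpm1 stood on chromosome 8 from 124833000 to 124833999, 27.5 kb from its start. Zfpm1 encodes FOG1, the partner of GATA factors in red cell and megakaryocyte development. Its 12 CpGs were at 48.3%, 49.0% and 41.0% in Nras G12D and at 22.0%, 19.8% and 15.6% in the double mutants. All 12 CpGs were lower in group means, and the difference of the tile was -27.0 points. The quasi-binomial test gave an adjusted p of 0.00233 with the 5 to 95% range and 0.179 over all tiles. The leukemic double mutants averaged 14.6%, with single libraries at 21.1%, 4.03% and 18.7%. Tet2 knockout averaged 31.6%, with libraries at 14.8%, 45.0% and 34.9%. There were 7 group-only positions within 1 Mb.

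Another fall lay on chromosome 8 from 73340000 to 73340999, 24.2 kb upstream of the kinase gene Mast3. Its levels were 73.9%, 65.0% and 61.5% in Nras G12D and 36.7%, 33.3% and 42.1% in the double mutants, with 139 group-only positions within 1 Mb. The most frequent group-only positions near a named tile were here, and their part in the fall was not tested. On chromosome 16 from 32200000 to 32200999, with 0 such positions, 12 CpGs went from 59.9%, 51.4% and 63.7% to 33.5%, 39.0% and 21.4%.

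In the 5 to 95% fit, 4 of the 20 tiles kept their call whichever library was left out: those on chromosome 6 (116601000), chromosome 2 (169417000), chromosome 4 (116977000) and chromosome 8 (124833000). The tile near Foxa3 lost it in 1 of 6 such fits, and the tile at 116589000 of chromosome 6 in all 6. Leaving out double mutant replicate 3 ended 14 of the 20 calls, Nras G12D replicate 1 ended 13, Nras G12D replicate 2 and double mutant replicate 1 ended 10 each, double mutant replicate 2 ended 9 and Nras G12D replicate 3 ended 6. In limma 0 of the 20 were called, with adjusted p from 0.613 to 0.856.

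**Figure D3:**
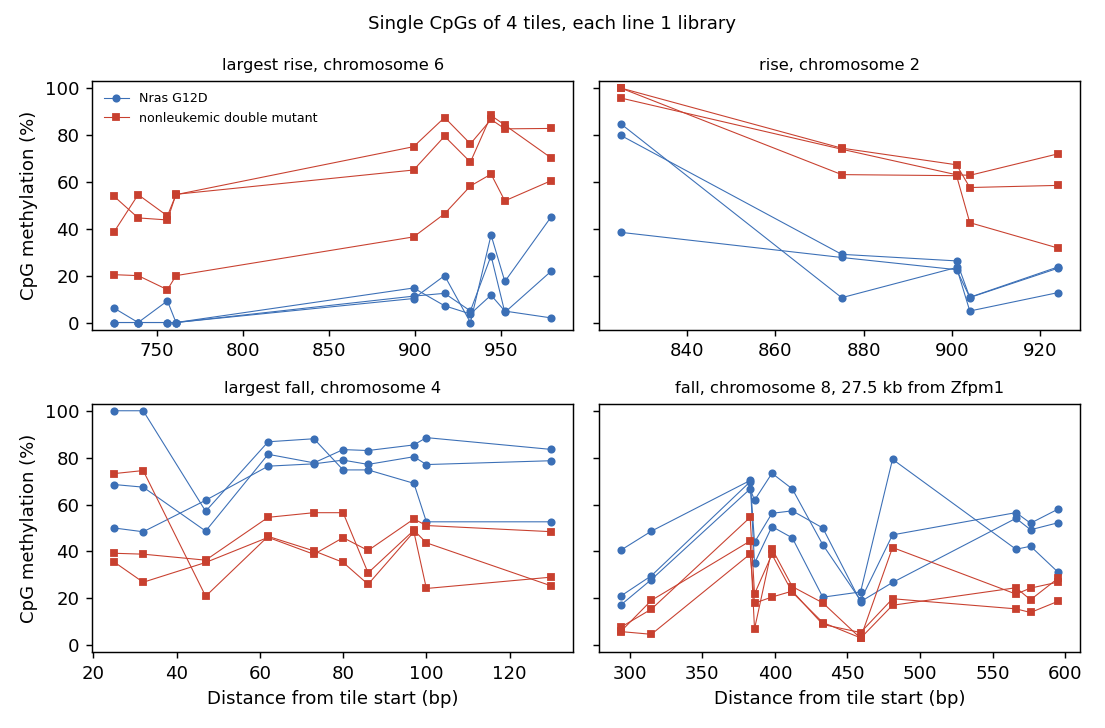
Methylation of single CpGs, in percent, against the distance from the start of the tile in bp, in 4 tiles, with 1 line per library. In the upper panels (chromosomes 6 and 2) the double mutants are higher at all 10 and all 5 CpGs in group means, and in the lower panels (chromosomes 4 and 8) lower at all 10 and all 12.

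Single CpGs were described from the same alternative fit, which called 356 (0.0337%), 170 of them higher (0.0161%) and 186 lower (0.0176%). The higher CpGs fell to 89, 61 and 84 without double mutant replicates 1, 2 and 3, and leaving out each of the 6 libraries gave 61 to 187 higher and 127 to 199 lower. Of the 186 lower CpGs, 155 were above 80% in Nras G12D, and 141 had at least 5 group-only positions within 1 Mb, which 6.65% of all tested CpGs have. Of the 170 higher CpGs, 55 had as many. With those surroundings left out 126 CpGs were called. A difference of over 80 points was seen at 19 CpGs, all of them lower. The largest fall, named after its value was seen, was at position 54858074 of chromosome 14, within the length of Dad1, with 28 group-only positions within 1 Mb. It was at 100%, 90.9% and 100% in Nras G12D and at 0% in all 3 double mutants, where 27 to 68 reads allow up to 4.41% to 11.1% each. Those limits cover counting only. The sequence at this position and at the other lower CpGs was not checked. Tet2 knockout replicate 1 was also at 0% there, and the other 5 libraries outside the comparison were at 85.5% to 100%.

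Promoters were placed on mm9 by their pattern of CpGs, and 9155 windows of 300 bases of 8112 genes were tested. Nearly all were unmethylated: 8376 of the 9155 were under 5% in each of the 6 libraries. The quasi-binomial test called 0 windows (0%), and limma 0, at a difference of at least 10 points, while 624 windows (6.82%) were higher and 171 (1.87%) lower at an unadjusted p under 0.05. Among these, 13 higher and 6 lower windows differed by at least 10 points. All double mutants were above all Nras G12D libraries in 681 windows (7.44%) and below in 189 (2.06%).

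The promoter sequences of 3 genes are shown, 250 bases before the start from RefSeq (GRCm38.p6), to set a CpG-poor promoter that was higher and a CpG-rich one that was lower beside an unmethylated promoter of the MAPK feedback list. Muc20 and Nradd were chosen after their values were seen. CpGs are in capitals, and all 3 sequences are on the minus strand of mm9, read 5′ to 3′.
Muc20 (chr16:32797522-32797771): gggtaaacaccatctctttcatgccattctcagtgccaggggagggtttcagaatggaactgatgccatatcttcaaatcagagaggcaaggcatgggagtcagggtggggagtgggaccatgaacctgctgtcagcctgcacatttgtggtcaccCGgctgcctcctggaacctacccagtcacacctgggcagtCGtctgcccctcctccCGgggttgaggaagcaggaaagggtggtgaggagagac
Nradd (chr9:110526898-110527147): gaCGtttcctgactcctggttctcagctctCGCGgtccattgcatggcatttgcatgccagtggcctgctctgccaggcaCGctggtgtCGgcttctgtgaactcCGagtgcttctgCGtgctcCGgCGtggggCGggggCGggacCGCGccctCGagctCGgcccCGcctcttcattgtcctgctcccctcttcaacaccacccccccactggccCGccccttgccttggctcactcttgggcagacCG
Spry2 (chr14:106296037-106296286): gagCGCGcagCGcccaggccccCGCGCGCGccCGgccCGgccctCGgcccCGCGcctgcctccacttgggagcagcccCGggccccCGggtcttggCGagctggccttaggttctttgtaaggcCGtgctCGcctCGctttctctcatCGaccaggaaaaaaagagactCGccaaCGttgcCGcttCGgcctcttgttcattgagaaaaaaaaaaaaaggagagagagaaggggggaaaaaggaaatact

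Muc20 encodes a mucin, and its promoter holds only 3 CpGs in the bases shown. The window, 6 CpGs with the first bases of the transcript, was at 54.6%, 44.6% and 58.9% in Nras G12D and at 68.9%, 79.2% and 74.9% in the double mutants. All double mutants were higher, by 21.6 points in the mean, the largest rise among the windows, but the adjusted p was 0.567 in the quasi-binomial model. Tet2 knockout was at 72.4% and leukemic double mutants at 36.2%. The tile around it, from 32797000, was among the 51 higher tiles of the 5 to 95% fit, by 17.9 points.

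Nradd encodes a protein with a death domain akin to neurotrophin receptors. Its promoter holds 18 CpGs in the bases shown, and the 13 tested CpGs of the window were at 33.7%, 55.3% and 59.3% in Nras G12D. The double mutants were at 25.6%, 23.7% and 25.7%. They lay close together below a wide range of Nras G12D values, with replicate 1 of that group the nearest. The difference was -24.4 points, the largest fall among the windows, with adjusted p = 0.567 by the quasi-binomial test. The tile around it on chromosome 9 was at 47.7%, 56.1% and 66.3% against 32.8%, 31.5% and 25.3%. Leukemic double mutants were at 22.8% in the window and Tet2 knockout at 45.5%.

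Further windows singled out after their values were seen went both ways. Slc7a7, an amino acid transporter gene of macrophages, had a window at 57.8%, 48.9% and 58.9% in Nras G12D and at 26.5%, 42.2% and 35.7% in the double mutants. Igf2r, the imprinted receptor gene of insulin-like growth factor 2, was at 27.0%, 28.3% and 16.9% against 37.6%, 34.9% and 29.7% over 23 CpGs. Ddr1, a collagen receptor gene, was at 25.4%, 39.9% and 40% against 46.9%, 53.5% and 47.2% in a window of 5 CpGs. The groups did not overlap in these 3 windows, and the adjusted p was 0.567 for each by the quasi-binomial test. Group-only positions were not counted around these windows. On the chromosome of Slc7a7, a lower tile from 55253000 had 28 of them within 1 Mb, and the Slc7a7 window starts at 55036490.

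Spry2 encodes Sprouty 2, an inhibitor of signalling from receptor kinases to Ras and MAPK. Its promoter holds 23 CpGs in the bases shown, and the window was at 0% in the 3 Nras G12D libraries and in double mutant replicate 1. The counts behind those values allow up to 0.326% to 0.378%, from counting error only. The other 2 double mutants were at 0.448% and 0.247%. These levels are below the apparent methylation of mitochondrial DNA in some libraries, and the difference was 0.232 points.

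The MAPK feedback list, chosen with earlier results of these data known, had 20 genes, of which 13 were measured in 14 promoter windows. The quasi-binomial model called 0 of the 14 windows, as did limma, and each was at or below 1.53% in each library. At an unadjusted p under 0.05, 4 windows differed, beside 795 of the 9155 windows tested. Dusp6, the phosphatase that acts on ERK, was at 0% in the 3 Nras G12D libraries, which allows up to 0.238% to 0.347%, and at 0.664%, 0.206% and 0.0719% in the double mutants. Errfi1, an inhibitor of EGF receptor signalling, was at 0.247%, 0.219% and 0.0583% against 0.753%, 0.536% and 0.324%. Dusp2, a nuclear phosphatase of MAP kinases, was lower in the double mutants, at 0.150%, 0.362% and 0.656% against 0%, 0% and 0.0517%. Spry2 was the fourth. Their differences were between -0.372 and 0.363 points, and adjusted p was 0.567 for each in the quasi-binomial model.

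The other measured members also had low levels. Among the genes that switch Ras off, Nf1 and Rasa1 differed by -0.0547 and 0.284 points, and Rasa2 by 0.000521. Spred1, which brings Nf1 to the membrane, differed by -0.0382 points. Dusp1, Dusp5 and Dusp7 differed by 0.0486, 0.110 and 0.116 points, and Lztr1, which marks Ras proteins for degradation, by 0.136. The 2 windows of Dab2ip, a Ras GTPase activator, differed by -0.601 and 0.315 points. The median of the list was 0.113 points, beside 0.0219 over all windows.

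Regions around these genes were also counted. Of 138 tiles within 50 kb of a placed start of the list, 9 were higher and 2 lower at an unadjusted p under 0.05, near the 5.54% and 2% of all tiles, and 0 were called with either spread. The median tile difference was 0.124 points, beside 0.169 over all tiles. Around Dusp5, a nuclear phosphatase of ERK, 3 of 18 tiles were higher and 0 lower, with a median of 2.51 points, where 5.54% of all tiles were higher.

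Most measured promoters of blood cell genes were likewise unmethylated, but many members of these lists were not measured. Measured were 6 of 15 stem cell, 4 of 15 myeloid, 7 of 15 lymphoid and 3 of 12 erythroid genes. Promoters with fewer than 5 CpGs could not be placed, so the levels given leave them out. The stem cell list had 7 windows at or below 1.21%, and the myeloid list 4 at or below 0.955%. Of the lymphoid list, Tcf7 and Pax5, transcription factors of T and B cells, had windows at higher levels. A window of Tcf7 was at 12.6%, 11.03% and 13.5% in Nras G12D and at 14.1%, 9.12% and 9.42% in the double mutants, and Pax5 at 10.7%, 7.88% and 5.18% against 4.18%, 7.44% and 9.38%. The groups overlapped in both. Epor, the erythropoietin receptor gene of the erythroid list, was at 37.8%, 56.4% and 62.8% against 67.9%, 49.4% and 65.5%, with wide overlap, over 3 CpGs and 82 to 220 reads. The leukemic double mutants averaged 7.03% there, and Tet2 knockout 66.8%. The 13 windows of the methylation machinery, among them Dnmt and Tet family members, were at or below 3.05%. Tet1, a paralog of Tet2, was the member with the largest difference, at 0%, 0.343% and 0% in Nras G12D and at 1.78%, 0.395% and 1.18% in the double mutants. These groups did not overlap, but adjusted p was 0.567 in the quasi-binomial model. Of the mast and endothelial cell markers, 1 of 8 was measured, at or below 2.32%.

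Among 10 windows of tumour suppressor genes methylated in myeloid leukemia, Sfrp5, an inhibitor of Wnt signalling, was the highest. It was at 4.04%, 2.95% and 3.90% in Nras G12D and at 6.19%, 5.32% and 7.08% in the double mutants. The groups did not overlap, and the difference was 2.57 points, below the 10 points of a call, with adjusted p = 0.567 by the quasi-binomial test. Over these 7 further lists, 0 windows were called in that model.

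**Figure D4:**
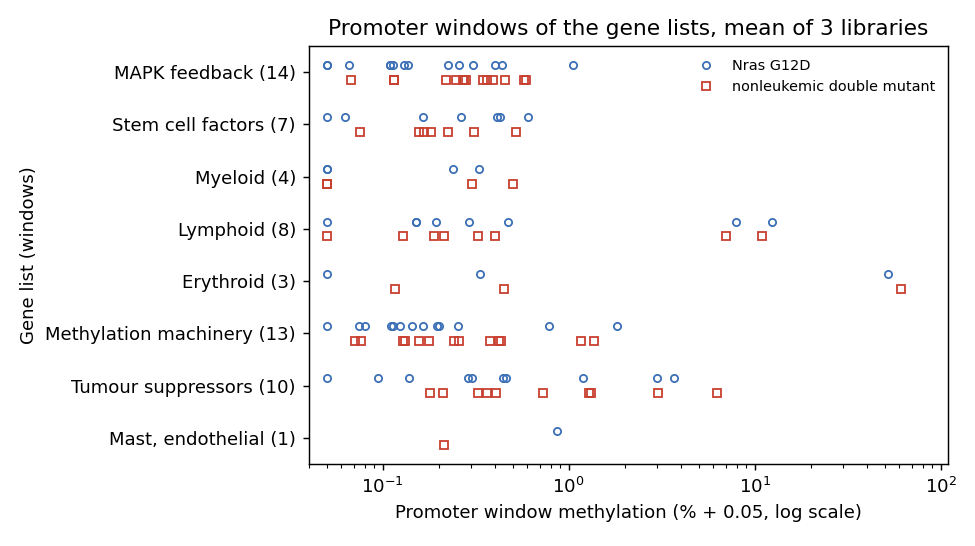
Methylation of the promoter windows of the gene lists, as the mean of 3 libraries of each group, in percent plus 0.05 on a log axis. Circles are Nras G12D and squares the double mutant, with the number of windows after each list name. Most windows are below 1%. Epor, at the right of the erythroid row, and Pax5 and a window of Tcf7 in the lymphoid row stand apart in both groups.

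Around the myeloid gene Irf8, a transcription factor that directs monocyte and dendritic cell fate, more tiles were higher. Irf8 was singled out after its values were seen. Of 27 tiles within 50 kb of its start, 19 were higher in the double mutants, 7 with no overlap between the groups and 7 at an unadjusted p under 0.05, and 0 were lower at that level. Of all tiles, 57.5% were higher (65.8% of the partly methylated ones), 8.22% were higher with no overlap and 5.54% at that p. The median difference was 3.44 points, the smallest adjusted p 0.46 in the quasi-binomial model, and 3 group-only positions lay within 1 Mb. Around Hlf, a transcription factor of blood stem cells, 3 of 6 tiles were higher at that level, with a median of 7.92 points. Around Zfpm1, 1 of 31 tiles was higher and 1 lower, the latter being the tile within the gene.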

How the data were processed

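RRBS libraries were cut with MspI, selected at 150 to 400 bp and read for 50 bp, per the labels' protocols. The submitters' processing notes name Bismark (version not given in the sources used here) and the build mm9, or NCBIM37. For each CpG and strand with 10 or more reads, the deposited tables hold the read count as coverage and the shares of C and of T in percent. Methylated and unmethylated counts are coverage times these shares, rounded and summed over both strands; other bases were dropped. PCR copies count as reads, so intervals and limits (a count of 0 allows 3 reads) cover counting error only. CpGs above the 99.9th percentile of coverage in a library were left out. The members, gene lists and tests were chosen with earlier results of these data known.

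Features were tested with a quasi-binomial model on the group in the 6 libraries (4 residual degrees of freedom): Pearson dispersion moderated by limma's squeezeVar method, floored at 1, F test of the deviance difference, Benjamini-Hochberg adjustment over all features of a kind. For CpGs in the 5 to 95% fit the moderation left a single shared dispersion, and a chi-square test took the place of the F test. A promoter window needed 10 points for a call. Named tiles follow the rule of up to 12 rises and 8 falls among called tiles of 5 or more CpGs whose groups do not overlap; with 1 tile called, it was applied to the added fit with a prior from tiles of 5 to 95%. The calls with each range stand in the report. Alternatives were a coverage minimum of 20, no high-coverage filter, Fisher's exact test on pooled reads, limma on the log2 ratio of methylated to unmethylated reads with 1 added to each, all 12 libraries, chromosome 3, a replicate block, equal depth by thinning, other tiles and thresholds, separate strands and each library left out.

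No mm9 genome was used. RefSeq promoter sequences (GRCm38.p6, 250 bases before to 50 after the start) were placed on the mm9 positions of the deposited tables by CpG spacing: each listed CpG of a window had to meet a CpG of the sequence. At least 10 CpGs had to match at a single place on the chromosome, or 5 between placed neighbours in gene order. Of 7508 placements of the former kind 7506 were in gene order, and 1 of 14272 sequences was placed on a wrong chromosome. In all 10160 windows of 8989 genes were placed, and none on chromosome 18. No coordinate of GRCm38 was used.

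Each test was first checked on simulated reads with the spread of each level and coverage class. With the spread of all features it missed nearly every altered tile and every altered CpG. Of the altered promoter windows it found more than it missed, but it missed many. Low counts of calls therefore do not show that few regions differed. Replicates of a group differed beyond counting noise: a mean chi-square of 5.62 to 5.99 over tiles, and of 10.9 in both pairs with Nras G12D replicate 3. R 4.3.3 with limma 3.58.1 and Python 3.11.15 with SciPy 1.17.1, numba 0.67.0, NumPy 2.4.6, matplotlib 3.10.9 and pandas 2.3.3 were used.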

Additional observations from a re-analysis of the deposited data

Results flagged for a closer look

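Some positions left out of the tests were covered in double mutants and not, or far less, in Nras G12D. At 335 CpGs of chromosome 8, 248 of chromosome 12 and 216 of chromosome 3, every nonleukemic double mutant had at least 20 reads and no Nras G12D library listed the position. These chromosomes hold 5.96%, 4.12% and 4.48% of the autosomal CpGs covered in all 6 libraries. The reverse was seen at 41, 33 and 204 CpGs of the same chromosomes. Nonleukemic replicate 1 listed 349 positions of chromosome Y, and Nras G12D libraries 6 to 13.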

How the results depend on the processing

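The tile and CpG calls depended on the spread estimate and the test. Against 1 tile with the spread drawn from all features, ranges of 1 to 99%, 5 to 95% and 20 to 80% called 191, 70 and 1 tiles, and 457, 356 and 163 CpGs against 0. limma called 0 tiles, the fit on all 12 libraries 2, tiles of 500 bp 0, tiles of 2000 bp 1 (a higher one), and Fisher's exact test, which treats reads as replicates, 3345 tiles, 6653 CpGs and 29 promoter windows (0 in the quasi-binomial fit). Leaving out each library in turn gave 0 tiles each time with the spread of all features, and 24 to 57 tiles and 216 to 386 CpGs in the 5 to 95% fit (70 and 356). That fit called 36 tiles with at least 5 CpGs a tile, 6 tiles and 0 CpGs on all 12 libraries, and 30 tiles and 126 CpGs without regions rich in group-only positions.

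With the replicate number as a block, 0 tiles were called with the spread of all features, and 107 tiles and 0 CpGs in the 5 to 95% fit. The numbers do not pair the samples: deviations of same-numbered libraries correlated at -0.00306, 0.00964 and -0.00764 over tiles, so the block stands here only. The other settings left counts within 1.5 times.

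The mean difference was 0.745 points with CpGs weighted by coverage (0.442 unweighted). Classes set on Nras G12D gave 0.281 points under 20%, 4.68 at 20 to 80% and -0.262 over 80%, a reversal that classes set on 1 of the groups compared can bring by construction, and classes set on the outside libraries 2.39 at 20 to 80%. Without each library in turn the difference at 20 to 80% was 2.98 to 3.58 points, over 80% 0.131 to 0.681 and under 20% 0.105 to 0.203. With 3 libraries a group, no permutation test could pass 0.05, and single CpGs, at a median of 79 to 94 reads, were the least precise. Where a count moved, the cause was not tested.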
